A study of Mus musculus with 12 samples.

Results

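The 36 genes described here act in mitosis and cytokinesis, and they were chosen by symbol for their roles in cell division. The rule uses no difference between groups, but the genes were chosen with earlier results of these data known. Each gene was read through the brightest probe set annotated to its symbol alone, by the mean of log2(intensity + 16) over all 12 arrays. Of the 36, 35 had such a probe set, and all 35 passed the filter on low values that left 10759 of 18193 genes for testing. The cyclin B1 gene Ccnb1 was not analysed here.

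Mitosis is driven by cyclin-dependent kinase 1 (CDK1) with its cyclins, held at the spindle checkpoint until every kinetochore is attached to microtubules, and ended when the anaphase-promoting complex (APC/C) destroys cyclins and securin. Cytokinesis then follows from the central spindle, where the chromosomal passenger complex and the centralspindlin pair of KIF23 and RACGAP1 bring the exchange factor ECT2 to the membrane to switch on the GTPase RHOA, which drives the contractile ring. Megakaryocytes, the platelet-forming cells, enter repeated mitoses without completing cytokinesis (endomitosis), and in mouse megakaryocytes loss of Ect2 expression has been tied to that state, whereas erythroid progenitors go on dividing fully until late in maturation.

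The cells were of the G1ME line, mouse progenitors of megakaryocytes and red cells that lack Gata1, so the deletion was shared by every group. They were transduced with the MIGR1-GFP retroviral vector expressing GATA1 or with the empty MIGR1-GFP vector, and the GFP-positive cells were sorted 18 h or 42 h later. This gave 4 groups of 3 arrays each, named here GATA1 18 h, vector 18 h, GATA1 42 h and vector 42 h, each with arrays lettered A, B and C. The design text calls the triplicates biological, but the letters name no culture or day, the whole study rests on 1 cell line, and GATA1 came from a retroviral promoter and not from its own gene.

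Each array gave 1 linear intensity for each of 45101 probe sets, with medians between 8.05 and 8.29, and the number of arrays limits the precision. The Gata1 probe set was bright in both constructs, at 1714 to 2435 on the 6 GATA1 arrays and 2815 to 3329 on the 6 vector arrays, so it does not check the labels and the groups are named as labelled. Summed levels of marker lists differed between the constructs. The 8 erythroid markers on the array summed to 35576 to 41685 in GATA1 42 h and 439 to 969 in vector 42 h, and 8 of 8 were higher at limma's adjusted p under 0.05. The 9 megakaryocyte markers summed to 38394 to 47919 in GATA1 42 h and 18300.0 to 19074 in vector 42 h, with 6 higher and 1 lower. The 10 mast cell and myeloid markers summed to 187 to 238 in GATA1 42 h and 3896 to 5647 in vector 42 h, with Mcpt8, Ms4a2, Fcer1a and Elane below the array median on every array. The 5 lymphoid markers were also below the median on every array. At 18 h the same sums were 3876 to 5659 in GATA1 and 385 to 1541 in vector for erythroid markers, 26100 to 34685 in GATA1 and 16581 to 19851 in vector for megakaryocyte markers, and 1775 to 1845 in GATA1 and 4114 to 5127 in vector for mast cell and myeloid markers. The part of this shift in cell identity in the values of the mitotic genes was not tested. In such bulk RNA, fewer cells in division and less of a transcript per cell cannot be told apart.

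Before any comparison of constructs, the 35 genes differed between replicate arrays of the same group, and at 18 h they did so together. In GATA1 18 h the array lettered A was the highest of the 3 for 31 of the 35 genes and the array lettered C the lowest for 29. The vector 18 h group ran the same way, with array A highest for 32 and array C lowest for 30. Over all 10759 genes tested, array A was the highest for 34.0% in GATA1 18 h and 34.7% in vector 18 h, and array C the lowest for 33.2% and 31.9%. The median of the 35 genes' deviations from their own 12-array means was 0.15, -0.00 and -0.15 (log2) on GATA1 18 h arrays A, B and C, and 0.16, -0.04 and -0.23 on vector 18 h arrays. At 42 h it was 0.18, 0.05 and 0.05 in GATA1 and -0.01, -0.06 and -0.04 in vector, where all 3 GATA1 arrays lay above all 3 vector arrays. The order by letter was weaker at 42 h, when array A was highest for 17 genes in GATA1 and 15 in vector. The median SD between replicate arrays of the 35 genes was 0.16 in GATA1 18 h and 0.21 in vector 18 h, above the 0.11 and 0.12 of all genes, and 0.10 in both groups at 42 h. The array GATA1 42 h A also had the highest 5′ signal of 18S ribosomal RNA (12.4 on the log2 scale, against 4.79 to 10.6 on the other arrays) and the highest ratio of actin 3′ to 5′ signal (0.80 against 0.38 to 0.55, log2). The part of these array differences in the comparisons below was not tested.

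**Figure D1:**
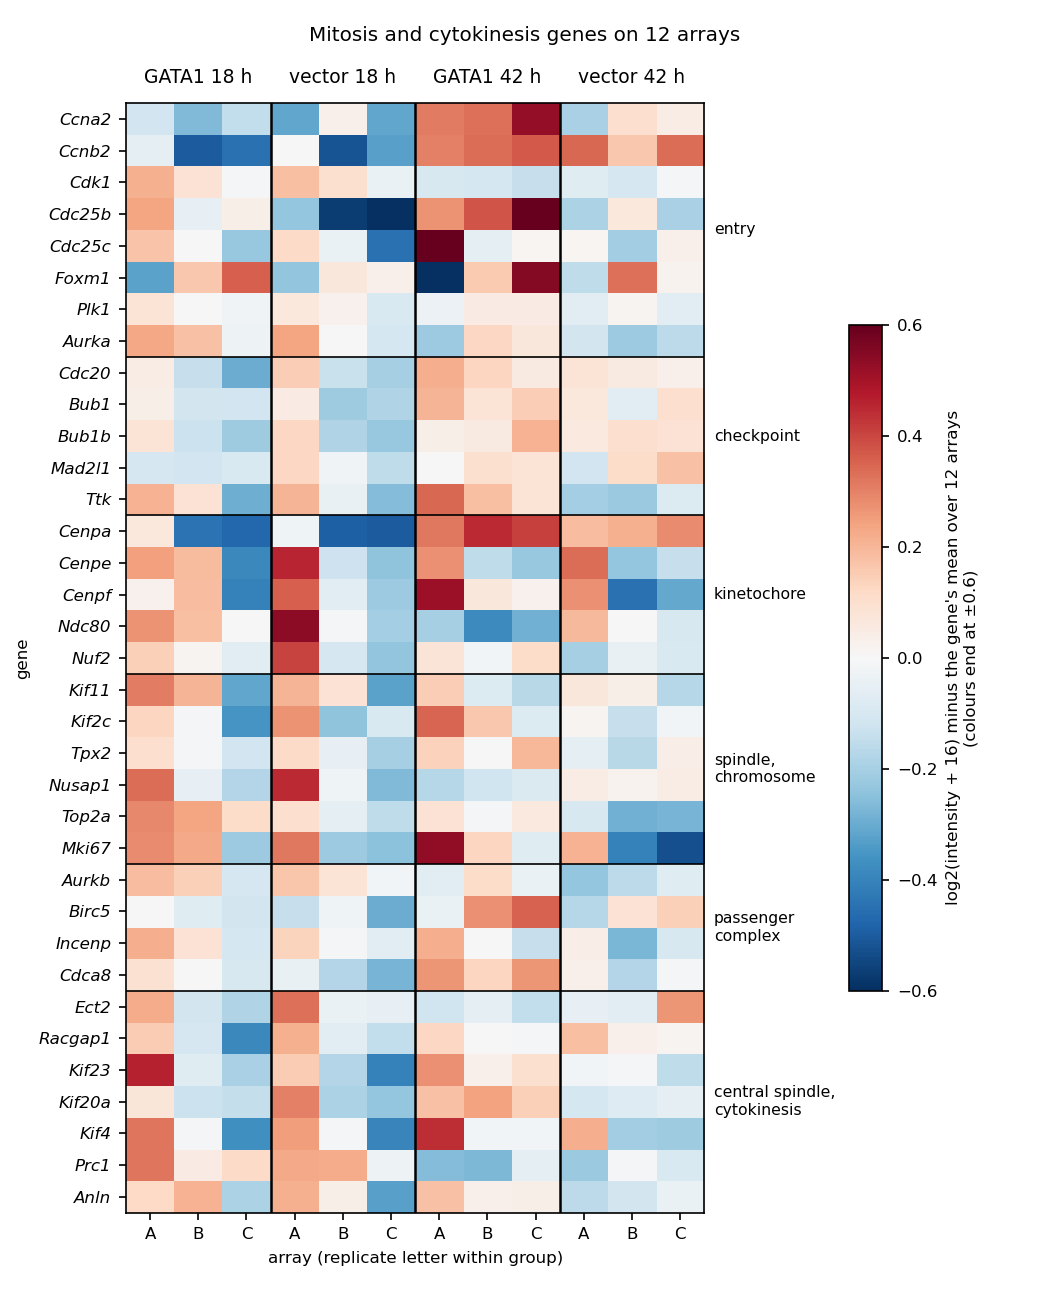
Each row is 1 of the 35 genes and each column 1 array, grouped by construct and time and lettered A to C. Colour gives log2(intensity + 16) minus the gene's mean over the 12 arrays, and the A columns of both 18 h groups are mostly red and the C columns mostly blue.

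The letters that the promoters of these genes share were also counted. Their part in the differences between arrays was not tested. RefSeq promoter windows of build GRCm38.p6, from 250 bases before to 50 bases after the annotated start, were at hand for 29 of the 36 genes. Entries were missing for Aurkb, Incenp, Kif20a, Cdc25c, Foxm1, Ccna2 and Tpx2. Letters were searched on both strands. TTTGAA is the core of the cell cycle genes homology region (CHR), through which the DREAM and MYBL2-FOXM1 complexes act on late cell cycle genes, TTCGAA is a known variant of it, and CCAAT is bound by the factor NF-Y. AGATAA and TGATAA are forms of the motif that GATA factors bind. Printed next are 150 bases (120 before and 30 after the start, on the gene's strand, 5′ to 3′) for the genes that passed a test in any comparison and had an entry, and for Ect2, Kif23 and Racgap1, which act together in switching on RHOA. Capitals mark both CHR forms and the NF-Y motif on either strand, and a motif read on the other strand appears as its reverse complement (ATTGG for the last).
Cdca8, chr4:124936888-124937037, minus strand: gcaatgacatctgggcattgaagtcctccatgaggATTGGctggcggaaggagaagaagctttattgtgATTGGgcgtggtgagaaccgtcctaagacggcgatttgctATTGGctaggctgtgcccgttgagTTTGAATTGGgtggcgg
Top2a, chr11:99024160-99024309, minus strand: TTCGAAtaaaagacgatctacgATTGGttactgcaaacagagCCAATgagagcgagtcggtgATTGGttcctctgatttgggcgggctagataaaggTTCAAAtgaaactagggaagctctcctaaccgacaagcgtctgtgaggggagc
Cdc25b, chr2:131186828-131186977, plus strand: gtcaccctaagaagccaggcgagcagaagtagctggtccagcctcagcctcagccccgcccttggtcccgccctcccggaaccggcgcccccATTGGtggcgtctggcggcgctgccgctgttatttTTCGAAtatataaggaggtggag
Ccnb2, chr9:70421525-70421674, minus strand: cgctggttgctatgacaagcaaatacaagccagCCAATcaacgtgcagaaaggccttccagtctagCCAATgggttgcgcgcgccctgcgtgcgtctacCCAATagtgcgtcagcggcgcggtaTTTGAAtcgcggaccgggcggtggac
Cenpa, chr5:30666766-30666915, plus strand: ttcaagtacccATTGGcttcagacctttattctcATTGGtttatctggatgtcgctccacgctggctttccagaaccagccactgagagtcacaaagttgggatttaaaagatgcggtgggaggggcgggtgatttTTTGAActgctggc
Prc1, chr7:80294356-80294505, plus strand: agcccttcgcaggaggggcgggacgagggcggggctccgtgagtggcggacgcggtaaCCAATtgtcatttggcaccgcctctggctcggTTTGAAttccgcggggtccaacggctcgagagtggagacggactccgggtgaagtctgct
Ect2, chr3:27153825-27153974, minus strand: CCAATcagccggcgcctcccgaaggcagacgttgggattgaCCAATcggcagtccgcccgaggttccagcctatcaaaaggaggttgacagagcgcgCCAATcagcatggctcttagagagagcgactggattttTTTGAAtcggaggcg
Kif23, chr9:61946770-61946919, minus strand: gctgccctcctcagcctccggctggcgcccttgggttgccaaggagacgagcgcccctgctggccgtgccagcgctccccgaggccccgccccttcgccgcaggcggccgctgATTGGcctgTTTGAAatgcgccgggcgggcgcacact
Racgap1, chr15:99651627-99651776, minus strand: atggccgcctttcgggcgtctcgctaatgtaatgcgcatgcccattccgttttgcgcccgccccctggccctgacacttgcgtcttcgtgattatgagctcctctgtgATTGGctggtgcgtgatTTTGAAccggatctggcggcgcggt
In Cdca8 the TTTGAA and a reversed CCAAT share 1 base, the only case among the 29 genes.

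TTTGAA was found in 21 of the 29 promoters, that is 72.4%, compared with 20.2% of 27025 genes with an entry and 14.4% of 8824 tested genes with one. CCAAT was found in 22 (75.9%), compared with 41.1% and 43.3%. A CHR form (TTTGAA or TTCGAA) and CCAAT stood together in 20 (69.0%), compared with 8.61% and 6.75%. TTCGAA occurred in 4, among them Cdc25b and Top2a (13.8%, compared with 1.80% and 2.63%). The matches also lay close to the start. With 1 window per gene, 20 of 27 TTTGAA matches (74.1%) began within 50 bases of the start, compared with 25.1% of the matches over all promoters, and 19 of the 29 promoters (65.5%) held one there, compared with 5.02% of all. The forms that GATA factors bind occurred in few, with AGATAA in 2 (Cenpa and Top2a, 6.90%, compared with 12.7% and 8.20%) and TGATAA in 1 (Kif2c, 3.45%, compared with 10.4% and 5.66%). Outside the set, TTTGAA was found in 20 of 33 promoters of other spindle and kinetochore genes, 5 of 10 of condensin and cohesin, 8 of 21 of other mitotic kinase, APC/C and separase genes, 6 of 30 of contractile ring and abscission genes and 2 of 17 of DNA replication genes. CCAAT was found in 25, 5, 13, 9 and 12 of the same promoters, so in DNA replication genes (70.6%) it was nearly as frequent as in the 29. These are matches of letters, and no binding was measured.

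**Figure D2:**
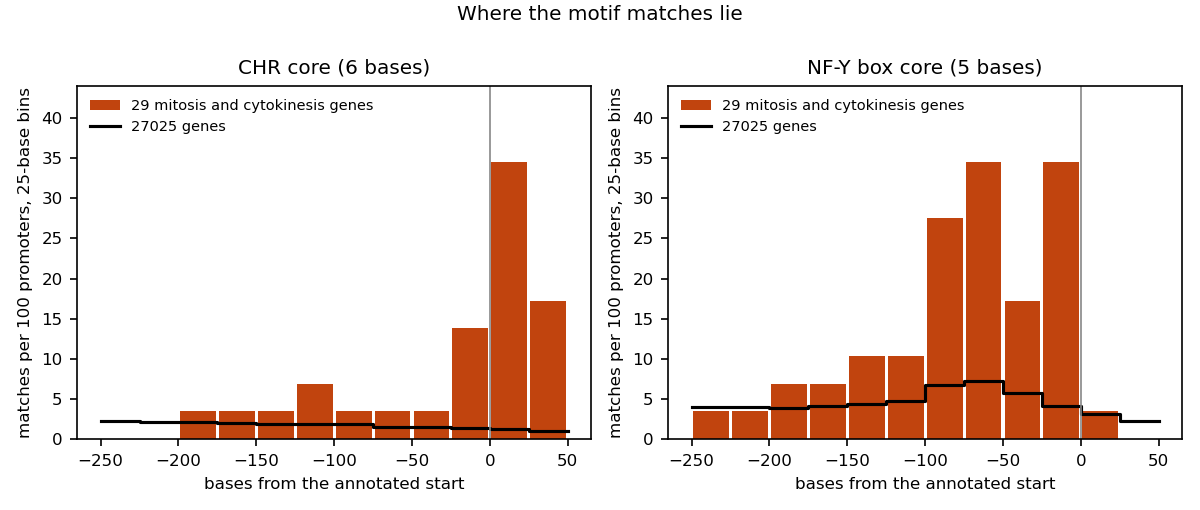
Bars give matches per 100 promoters in 25-base bins for the 29 mitosis and cytokinesis genes, and the line gives the same for 27025 genes, by distance in bases from the annotated start (0). The left panel shows TTTGAA and the right panel CCAAT, either strand. Among these genes TTTGAA peaks just after the start, with 20 of 27 matches within 50 bases, and CCAAT lies mostly before it.

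The first question was whether GATA1 changed these genes within 18 h. None of the 35 passed limma's test (adjusted p under 0.05 over all genes tested), against a background of 1.85% of 10759 genes. Arrays with the same letter deviated together between the constructs at each time, and with the letter as a block 1 passed, Top2a (adjusted p = 0.0461, with 3.3% of all genes passing). At an unadjusted p under 0.05 there were 2, Cdc25b and Top2a, and these were the only ones whose 3 GATA1 arrays all lay above the 3 vector arrays, while 0 lay wholly below (of all genes 15.4% did not overlap, 5.48% higher and 9.94% lower). The median change over the 35, GATA1 minus vector, was 0.03 on the log2(intensity + 16) scale, on which all changes are given and which understates those of dim probe sets. It was -0.01 over all genes. Changes of the 35 ran from -0.11 in Racgap1 to 0.55 in Cdc25b, and 24 of 35 were above 0 (41.4% of all genes). A change of 1.5-fold or more was seen in 0 of 35, and in 2.66% of all genes. The 95% interval of the change stayed within 1.5-fold in either direction for 30 of the 35 (82.5% of all genes) and within 2-fold for 35, so a change of 2-fold or more was outside the interval of each gene.

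At 42 h 4 of 35 genes passed the test, all of them higher with GATA1. They were Cdc25b and Ccna2, which push cells into mitosis, Top2a, which untangles chromosomes, and Cdca8, a subunit of the passenger complex. This is 11.4% of the genes, below the background of 20.9% of all genes called in either direction. In the same direction it was near the background, as 10.3% of all genes were higher. Lower were 0 of the 35, compared with 10.6% of all genes. With the letter as a block Ttk and Mki67 passed too, 6 of 35 beside 28.4% of all genes. The median change was 0.15 (0.00 over all genes), but 0.09 without array GATA1 42 h A, 0.10 over the 21 genes tested with their second brightest probe set and 0.07 with the mean of all probe sets. That mean takes in probe sets below the median on every array, such as the dimmest of Aurka and of Racgap1 (-0.01 and 0.00 at 42 h). For 5 of these 21 (Bub1, Bub1b, Kif11, Kif2c and Tpx2) the second probe set differed in sign from the first. With the brightest probe sets the changes ran from -0.32 in Ndc80 to 0.62 in Cdc25b, and 26 of 35 were above 0 (51.1% of all genes). Only Cdc25b changed by 1.5-fold or more, as did 11.9% of all genes. The 3 GATA1 arrays lay wholly above the 3 vector arrays for 11 genes and wholly below for 2, Ndc80 and Nusap1 (of all genes 33.4% did not overlap, 16.8% higher and 16.6% lower). Intervals stayed within 1.5-fold for 25 of 35 (67.6% of all genes) and within 2-fold for 35. The difference between the GATA1 effects at 42 h and 18 h passed for 0 of 35 genes (4.68% of all genes), with 1 at an unadjusted p under 0.05 (Ccna2) and a lowest adjusted p of 0.273.

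**Figure D3:**
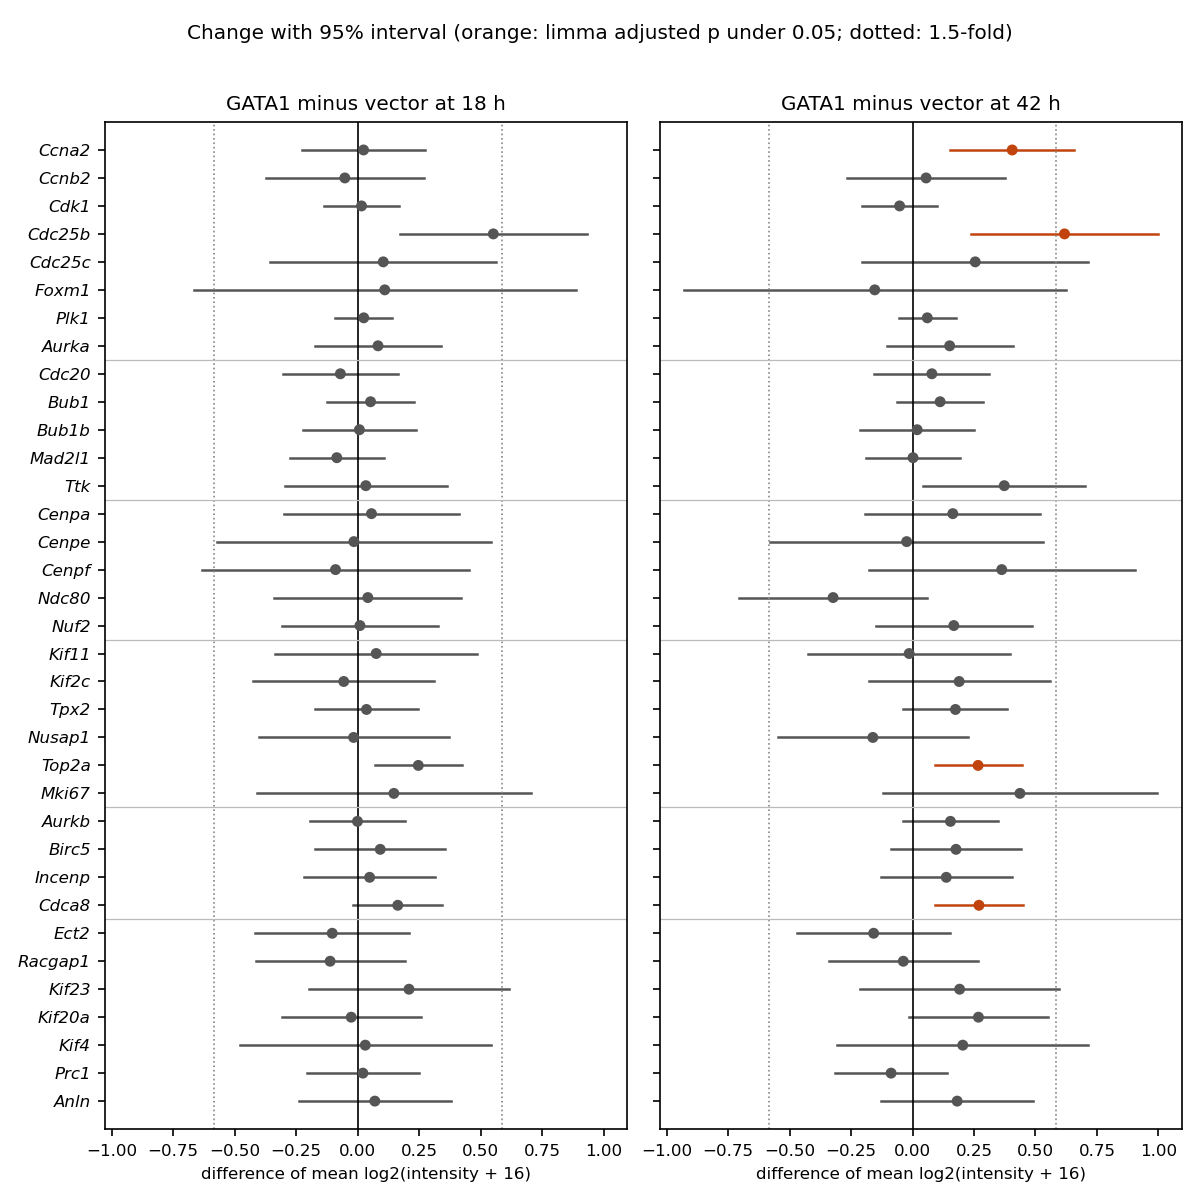
Points give the difference of mean log2(intensity + 16), GATA1 minus vector, for each of the 35 genes at 18 h (left) and 42 h (right), and lines give 95% intervals. Orange marks an adjusted p under 0.05 (none at 18 h, 4 at 42 h), and dotted lines mark 1.5-fold.

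**Figure D4:**
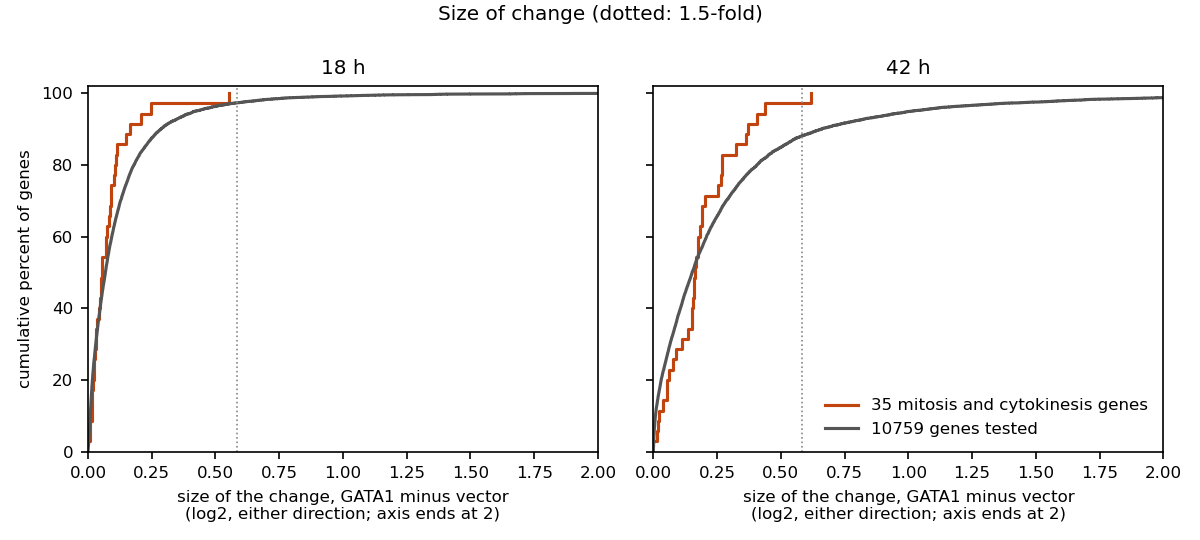
The curves give the cumulative percent of genes with a change (GATA1 minus vector, log2, either direction) up to the size on the horizontal axis, at 18 h (left) and 42 h (right). At 42 h 1 of the 35 genes passes the dotted line at 1.5-fold, compared with 11.9% of 10759 genes.

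Among the cyclins, CDK1 and the regulators of mitotic entry, 2 of 8 genes rose at 42 h and none fell, with a median change of 0.11. Cdc25b encodes a phosphatase that removes the inhibitory phosphates from CDK1. It read 169.6, 184 and 269 on GATA1 42 h arrays A, B and C, against 119, 145 and 118 on vector 42 h arrays. At 18 h it read 165, 133 and 142 with GATA1 and 115, 87.8 and 83.5 with vector. The GATA1 arrays were the higher ones at both times without overlap, and the level was low throughout. The change was 0.62 ± 0.17 at 42 h (SE; adjusted p = 0.0289) and 0.55 ± 0.17 at 18 h (adjusted p = 0.214). Ccna2, cyclin A2, partners CDK2 in S phase and CDK1 at mitotic entry. Its levels were 3452, 3490.3 and 4002 in GATA1 42 h and 2425, 2974 and 2865 in vector 42 h, again without overlap. In the earlier arrays they were 2559, 2308 and 2503 in GATA1 18 h and 2229, 2831 and 2229 in vector 18 h, which overlapped. The change of Ccna2 was 0.41 ± 0.11 at 42 h (adjusted p = 0.0297) and 0.02 ± 0.11 at 18 h (adjusted p = 0.9999). That of its second probe set was 0.28 at 42 h, which did not pass (adjusted p = 0.128), and -0.00 at 18 h. The Cdc25b call ended without array GATA1 42 h C, vector 42 h A or vector 42 h C, and the Ccna2 call without GATA1 42 h B, GATA1 42 h C or vector 42 h A, with adjusted p up to 0.0895 and 0.101.

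Cdk1, the kinase at the centre of mitotic entry, was bright, and its groups overlapped at both times. It read 5814, 5760.0 and 5632 in GATA1 42 h and 5906, 5792 and 6151 in vector 42 h, and the 18 h arrays held 7197, 6586 and 6155 with GATA1 and 7046, 6646 and 6030.3 with vector. The interval of its change ran from -0.21 to 0.10 at 42 h and from -0.14 to 0.17 at 18 h. Foxm1, the transcription factor that raises many genes of this set in G2, was the least precise. Foxm1 levels were 161, 371 and 491 in GATA1 42 h and 295, 419.8 and 335 in vector 42 h, with 261, 371 and 428 in GATA1 18 h and 278, 347 and 338 in vector 18 h. Array A was the lowest of its group every time, the reverse of most of the genes at 18 h, and the interval at 42 h (-0.93 to 0.62) reached nearly 2-fold lower. The 42 h differences were 0.06 for Ccnb2 (cyclin B2), 0.06 for Plk1 (a kinase for mitotic entry and spindle building), 0.15 for Aurka (the centrosomal Aurora kinase) and 0.26 for Cdc25c (a relative of Cdc25b), and none of these passed.

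Of the 5 spindle checkpoint and APC/C genes none passed at either time without the block, with median changes of 0.08 at 42 h and 0.01 at 18 h. Ttk, the MPS1 kinase that starts checkpoint signalling at unattached kinetochores, came closest, with 834, 745 and 694 in GATA1 42 h and 565, 558 and 617 in vector 42 h. The 3 GATA1 arrays were the higher ones without overlap (0.37 ± 0.15, adjusted p = 0.11, and 0.0442 with the letter as a block), while at 18 h the difference was 0.03. Differences at 42 h were 0.08 for Cdc20, the APC/C activator that the checkpoint restrains, and 0.11, 0.02 and 0.00 for the checkpoint components Bub1, Bub1b and Mad2l1.

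The 5 centromere and kinetochore genes likewise held no call, but spread in both directions at 42 h. Ndc80 and Nuf2 encode partners in the complex that grips microtubule ends. Ndc80 read 648, 569 and 608 in GATA1 42 h and 856, 746 and 698 in vector 42 h, all GATA1 arrays below all vector arrays (-0.32 ± 0.17, adjusted p = 0.235). Its partner Nuf2 read 427, 399 and 437 in GATA1 42 h and 350.1, 391 and 378 in vector 42 h, with the GATA1 arrays above (0.17 ± 0.14, adjusted p = 0.494). At 18 h the differences were 0.04 for Ndc80 and 0.01 for Nuf2. For Cenpf, a kinetochore protein of G2 and mitosis, the 42 h difference was 0.36 ± 0.24, for the kinesin gene Cenpe -0.02, and for Cenpa, the histone H3 variant that marks centromeres, 0.16.

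Of the 6 genes of spindle and chromosome structure, Top2a rose at 42 h. Top2a encodes topoisomerase II alpha, which separates sister DNA strands and is made in S phase to mitosis. It read 6846, 6387 and 6713 in GATA1 42 h and 6015, 5273 and 5309.7 in vector 42 h. At 18 h it read 7871, 7588 and 6941 with GATA1 and 6907, 6196 and 5793 with vector, and at both times the GATA1 array was higher within every letter. The groups did not overlap at either time, with differences of 0.27 ± 0.08 at 42 h (adjusted p = 0.0392) and 0.25 ± 0.08 at 18 h (adjusted p = 0.235, and 0.0461 with the letter as a block). The 42 h call was lost in 7 of 12 fits that left out 1 array, with adjusted p up to 0.124. The differences of a dimmer probe set were 0.56 at 42 h, which did not pass (adjusted p = 0.321), and 0.45 at 18 h. With the mean of all probe sets, which takes in one below the median on every array, the 42 h call was lost too (adjusted p = 0.149). Mki67 encodes the chromosome surface protein Ki-67, the usual marker of cycling cells. Its levels were 6499, 4914 and 4269 in GATA1 42 h, against 5201, 3386 and 3111 in vector 42 h, and at 18 h 5483, 5263 and 3861 in GATA1, against 5600.2, 3861 and 3788 in vector. Within each letter the GATA1 array was the higher at 42 h, but the groups overlapped with array A the highest and array C the lowest of either construct, and the change of 0.44 ± 0.25 did not pass (adjusted p = 0.277). With the letter as a block it did (adjusted p = 0.0136). At 42 h the differences of the motor genes Kif11 and Kif2c were -0.01 and 0.19, against 0.14 and 0.20 for the other 2 bright Kif11 probe sets and -0.15 and -0.14 for those of Kif2c. That of the spindle assembly factor Tpx2 was 0.17 (-0.05 with its second probe set) and that of the microtubule bundler Nusap1 -0.16.

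All 4 genes of the chromosomal passenger complex had a higher mean with GATA1 at 42 h on their brightest probe sets, by 0.14 to 0.27, with 1 call. Cdca8 encodes borealin, which with survivin places the complex on centromeres. It read 4921, 4481 and 4929 in GATA1 42 h and 4179, 3629 and 4078 in vector 42 h, and in the 18 h arrays 4361, 4094 and 3829 with GATA1 and 3977, 3628 and 3369.7 with vector. The groups were apart at 42 h and overlapped at 18 h, with changes of 0.27 ± 0.08 (adjusted p = 0.0403) and 0.16 ± 0.08 (adjusted p = 0.599). The 42 h call ended in 6 of 12 fits without 1 array, with adjusted p up to 0.135. The 42 h differences of the other 2 probe sets were 0.39, which did not pass (adjusted p = 0.136), and 0.20. Aurkb, the kinase of the complex, read 1291, 1465 and 1321 in GATA1 42 h and 1153, 1215 and 1289 in vector 42 h, without overlap, and 1545, 1499 and 1263 in GATA1 18 h and 1522, 1439 and 1338 in vector 18 h. Its 42 h change was 0.15 ± 0.09 (adjusted p = 0.27). Birc5, survivin, read 4503, 5602 and 5918 in GATA1 42 h and 4107, 4917 and 5113 in vector 42 h, and 4623, 4394 and 4287 in GATA1 18 h and 4202, 4547 and 3764 in vector 18 h. In the 42 h arrays it was lowest on array A of either construct, and the groups overlapped (0.18 ± 0.12, adjusted p = 0.366). Within each letter the GATA1 array was the higher at 42 h, but Birc5 did not pass with the letter as a block either. Incenp, the scaffold of the complex, read 5105, 4389.9 and 3978 in GATA1 42 h and 4506, 3627 and 4096 in vector 42 h, and 5094, 4663 and 4067 in GATA1 18 h and 4812, 4343 and 4176 in vector 18 h. The groups overlapped at both times (0.14 ± 0.12 at 42 h, adjusted p = 0.507). Of its dimmer probe sets above the array median on every array, 1 differed by 0.10 at 42 h and the others by -0.45 and -0.17.

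**Figure D5:**
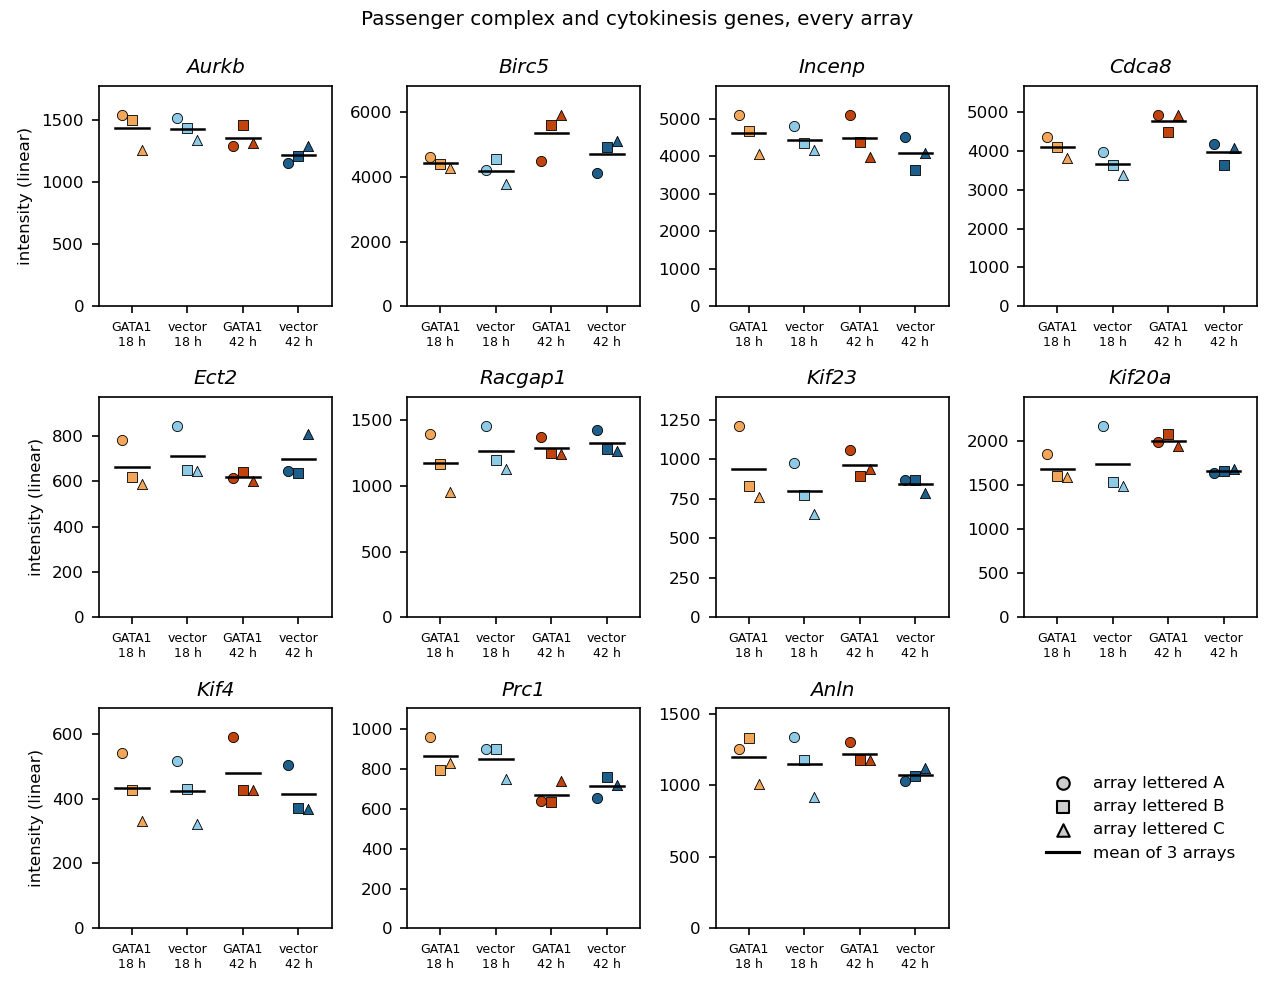
Each panel gives the linear intensity of 1 of 11 passenger complex and cytokinesis genes on every array, with circles, squares and triangles for the letters A, B and C and a bar for the mean of 3 arrays, and each axis starts at 0. Cdca8 in GATA1 42 h (4481 to 4929) lies above vector 42 h (3629 to 4179), and for most genes at 18 h the circle is the highest point.

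None of the 7 central spindle, RHOA activation and cytokinesis genes passed in either comparison of constructs, with median changes of 0.18 at 42 h and 0.02 at 18 h. Ect2, the exchange factor that loads RHOA with GTP, read 614, 642 and 602 in GATA1 42 h and 646, 638 and 808 in vector 42 h. At 18 h it read 784, 618 and 588 with GATA1 and 845, 649 and 647 with vector. The groups overlapped at both times, and vector 42 h C stood highest among the 42 h arrays. Its changes were -0.16 ± 0.14 at 42 h (95% interval -0.47 to 0.15, adjusted p = 0.515) and -0.10 ± 0.14 at 18 h (-0.42 to 0.21, adjusted p = 0.9999), so intervals held no fall of Ect2 as large as 1.5-fold at either time. Racgap1, the GTPase-activating subunit of centralspindlin that binds ECT2, read 1369, 1249.9 and 1243 in GATA1 42 h and 1420.5, 1279 and 1267 in vector 42 h, and 1396, 1166 and 954 in GATA1 18 h and 1455, 1198 and 1129 in vector 18 h. All 4 groups overlapped, and array A was the highest in each (-0.04 ± 0.13 at 42 h, interval -0.34 to 0.27). Within each letter the GATA1 array was the lower at both times, and Racgap1 did not pass with the letter as a block. Kif23, the motor subunit of centralspindlin, read 1062, 895 and 936 in GATA1 42 h and 866, 871 and 786 in vector 42 h, and 1212, 832 and 762 in GATA1 18 h and 975, 773 and 656 in vector 18 h. The 42 h groups did not overlap, but the change of 0.19 ± 0.18 did not pass (adjusted p = 0.548).

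Kif20a, the kinesin MKLP2 that carries the passenger complex to the central spindle, read 1985, 2076 and 1938 in GATA1 42 h and 1631, 1659.7 and 1682 in vector 42 h, with 1849, 1601 and 1589.6 in GATA1 18 h and 2170.1, 1537 and 1489 in vector 18 h. The 42 h groups were apart and tight, and those at 18 h overlapped (0.27 ± 0.13 at 42 h, adjusted p = 0.181). Within the 42 h arrays alone, where the spread comes from these 6 arrays, Kif20a and Ttk were the 2 of the 35 that passed (adjusted p = 0.0143 and 0.0395), beside 15.7% of all genes. The calls of Ccna2, Cdc25b, Top2a and Cdca8 were lost in that fit, with adjusted p between 0.0578 and 0.0881. Kif4, a chromosome-bound kinesin that limits central spindle length, read 591, 426 and 425 in GATA1 42 h and 504, 370.2 and 369 in vector 42 h, and 542, 426 and 329.9 in GATA1 18 h and 515, 428 and 323 in vector 18 h. Array A was the highest of each group, and the groups overlapped (0.20 ± 0.23 at 42 h, adjusted p = 0.627). At 42 h the GATA1 array was the higher within each letter, but Kif4 did not pass with the letter as a block either. Prc1, which bundles the antiparallel microtubules of the central spindle, read 639.7, 634 and 739.8 in GATA1 42 h and 657, 763 and 721 in vector 42 h, and 963, 796 and 833 in GATA1 18 h and 903, 899.5 and 751 in vector 18 h. Every 42 h array except vector 42 h B lay below all 18 h arrays, and the constructs overlapped (-0.09 ± 0.10 at 42 h, adjusted p = 0.649). The second probe set of Prc1, nearly as bright, differed by -0.22 at 42 h and did not pass either. Anln, the anillin that ties the ring to the membrane, read 1302, 1176 and 1179 in GATA1 42 h and 1031, 1066 and 1119 in vector 42 h, and 1252, 1331 and 1006 in GATA1 18 h and 1339, 1179 and 916 in vector 18 h. It was higher on all GATA1 arrays at 42 h without passing (0.18 ± 0.14, adjusted p = 0.437). Together the 11 passenger complex and cytokinesis genes held 1 call at 42 h, 5 with GATA1 arrays wholly above vector arrays and 0 wholly below, and intervals within 1.5-fold for 9. Of all genes 20.9% were called, 16.8% lay wholly above and 16.6% wholly below, so the call was no more frequent than the background. The 5 of 11 wholly above were a larger share than that of all genes, and the part of the array differences in it was not tested.

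With time, 4 of 35 genes differed between GATA1 42 h and GATA1 18 h, 3 higher and 1 lower, against 14.7% of all genes (6.73% higher and 7.94% lower). This comparison shares its arrays with the comparisons of constructs above. Ccna2 rose by 0.57 ± 0.11 (adjusted p = 0.00879), a call it kept without any single array but lost with its second brightest probe set (0.35, adjusted p = 0.0822). Ccnb2 read 4666, 4768 and 4886 in GATA1 42 h and 3641, 2671 and 2771 in GATA1 18 h, a rise of 0.67 ± 0.14 (adjusted p = 0.0129). In vector cells it read 4804, 4228 and 4769 at 42 h and 3783, 2632 and 3017 at 18 h, a difference of 0.56 ± 0.14 (adjusted p = 0.391). Cenpa read 2724, 2992 and 2913 in GATA1 42 h and 2288, 1606 and 1576 in GATA1 18 h (0.67 ± 0.16, adjusted p = 0.0198). In vector cells it read 2487, 2541 and 2668 at 42 h and 2150.2, 1552 and 1542 at 18 h (0.57 ± 0.16, adjusted p = 0.446). For both genes the 42 h arrays lay wholly above the 18 h arrays in either construct, and the test of the difference between constructs, which is that of the GATA1 effect between times, gave adjusted p = 0.918 for Ccnb2 and 0.929 for Cenpa. Prc1 fell by 0.36 with GATA1 (SE 0.10, adjusted p = 0.0454), and the difference was -0.25 in vector cells (adjusted p = 0.728). The lowest change of the 35 with GATA1 was that of Ndc80 (-0.44), which did not pass. In the fit of only the arrays compared Ndc80 passed (adjusted p = 0.0373) and Prc1 did not (adjusted p = 0.0833). The calls for Ccnb2, Cenpa and Prc1 ended in 2, 4 and 9 of 12 fits without 1 array. That of Prc1 held with its second brightest probe set and with the mean of all probe sets. It was lost with no filter on low values and with median centring. Arrays of the 2 times did not overlap for 13 genes with GATA1, 9 higher and 4 lower (31.5% of all genes, 16.4% higher and 15.1% lower), and for 5 with vector, 3 higher and 2 lower (10.3% of all genes, 3.1% higher and 7.18% lower). In vector 42 h against vector 18 h, limma called 0 of 35 (0.0186% of all genes, 2 genes, and 0.381%, 41 genes, with the letter as a block, again with 0 of the 35) and 5 had an unadjusted p under 0.05.

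Downstream of ECT2, the genes of the RHOA pathway and the contractile ring were read from a wider list of 34 symbols, of which 31 were tested. At 42 h 1 was higher and 3 were lower, with a median of -0.05, and at 18 h 0 passed. This was 12.9% of the list, below the 20.9% of all genes at 42 h (1.85% at 18 h). With the letter as a block 3 were higher and 7 lower, beside 28.4% of all genes. Rhoa itself read 3525, 6015 and 5059 in GATA1 42 h and 3305, 5769 and 5017 in vector 42 h, lowest on array A in both (0.05 ± 0.25, adjusted p = 0.969). Arhgef2, the exchange factor GEF-H1 for RHOA, also tied to endomitosis in mouse cells, read 629, 1047 and 1122 in GATA1 42 h and 779, 1387 and 1106 in vector 42 h, with overlap (-0.23 ± 0.30, adjusted p = 0.706). Myh9, the non-muscle myosin IIA heavy chain, differed by -0.02 ± 0.21, and Diaph1, a formin that RHOA activates to build actin filaments, by 0.01 ± 0.06 (adjusted p = 0.991 and 0.99). Myh10, myosin IIB, lay between 5.22 and 5.37, below the median of every array, and was not tested.

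Of the contractile ring and abscission genes that passed at 42 h, Septin6 and Actn1 changed by more than any of the 35 on their brightest probe sets. Septin6, a filament-forming GTPase, read 361, 359 and 319 in GATA1 42 h and 761, 782 and 718 in vector 42 h, and 612, 707 and 650.1 in GATA1 18 h and 791, 761 and 777 in vector 18 h. It fell by 1.09 at 42 h (SE 0.06, adjusted p = 3.66e-06), with no overlap at either time. Actn1, the actin cross-linker alpha-actinin, read 260.2, 161 and 146 in GATA1 42 h and 81.5, 67.3 and 77.6 in vector 42 h (1.13 ± 0.21, adjusted p = 0.00417), but its second brightest probe set differed by 0.05 (adjusted p = 0.93). Chmp4b, a subunit of the ESCRT-III machinery that cuts the midbody, fell by 0.34 (SE 0.07, adjusted p = 0.00987). The Chmp4b call was lost with its second brightest probe set (-0.39, adjusted p = 0.25) and with the mean of all probe sets (adjusted p = 0.057). It was also lost without the 4 arrays lettered A (adjusted p = 0.102). Myl12b, a myosin light chain, was the other one lower.

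Other lists of the division cycle held calls at 42 h in 8.33% to 22.2% of their genes, near or below the 20.9% of all genes. Of 36 other spindle and kinetochore genes 3 were higher and 0 lower at 42 h (median 0.13), and 6 were higher with the letter as a block. They included Ska1, of the kinetochore SKA complex, at 0.41 ± 0.12 (adjusted p = 0.0338; 0.08 with its second probe set, adjusted p = 0.403) and Kntc1, of the checkpoint RZZ complex, at 0.35 ± 0.07 (adjusted p = 0.0065). Of 27 other mitotic kinase, APC/C and separase genes 5 were higher and 1 lower (median 0.06), and 8 and 1 with the block. Ube2c, the ubiquitin-conjugating enzyme of the APC/C, read 5103, 5521 and 5855 in GATA1 42 h and 3518, 4047 and 4358 in vector 42 h (0.47 ± 0.10, adjusted p = 0.00982). Melk, a kinase of cycling cells, rose by 0.37 (adjusted p = 0.0314), and Pkmyt1, which keeps CDK1 phosphorylated and inactive, fell by 0.32 (adjusted p = 0.0455) with overlapping groups. The Pkmyt1 call was lost with the letter as a block (adjusted p = 0.053), and its second brightest probe set turned the direction (0.0186). Of 13 condensin and cohesin genes 1 was higher, Ncapd3 (0.33, adjusted p = 0.0378), and 1 lower, Smc1a (-0.35, adjusted p = 0.0126), and 2 and 1 with the block. Of 20 DNA replication genes 2 were higher and 1 lower, namely Rrm2, a subunit of ribonucleotide reductase (0.59, adjusted p = 0.00175), Rfc4 of the clamp loader (0.42, adjusted p = 0.00958) and Mcm6 of the replicative helicase (-0.25, adjusted p = 0.0255; -0.01 with its second probe set, adjusted p = 0.99). With the block 2 of these were higher and 3 lower. Second probe sets also lost the calls of Ncapd3, Smc1a and Rfc4. All 4 lists held 0 calls at 18 h.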

How the data were processed

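RNA of 12 samples of G1ME cells was measured on Affymetrix arrays. The file that the authors deposited holds a linear intensity for each of 45101 probe sets on each array. GCRMA and MAS5 are named in the submitters' processing notes, with no word on which of them gave these values. Background correction and scaling are not given in the sources used here. Probe sets were named through GEO's platform annotation, which lists 1 symbol for 34945, and each gene was read from its brightest such probe set by mean log2 value. Genes above the array median on at least 3 of the 12 arrays were tested with limma 3.58.1 in R 4.3.3 (lmFit, eBayes) on log2(intensity + 16), with all 12 arrays and 4 group means, and p-values were adjusted by Benjamini-Hochberg over the 10759 genes at a threshold of 0.05. The fit was tested on simulated data. No normalization was added. Same-letter arrays correlated in their deviations from the group means at 0.31 to 0.66 between constructs at 18 h, 0.24 to 0.60 at 42 h and 0.35 to 0.54 between times in vector cells, all over 0.1, so the letter was taken to pair them there. The pairing comes from these correlations, as no label gives it. The fit with the letter as a block is printed where it changed a call, and its letter term spans both times.

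The genes and lists were chosen with earlier results of these data known. Every array is given for the mitosis and cytokinesis genes that passed at 18 h or 42 h, the 11 passenger complex and cytokinesis genes, Foxm1, Mki67, Cdk1 and Top2a. Those of further genes, such as Ttk, Ndc80, Nuf2, Ccnb2, Cenpa and Ube2c, were added after their values were seen. From the wider lists up to 2 genes higher and 2 lower at 42 h are named, with Rhoa, Arhgef2, Myh9, Myh10 and Diaph1, and Myl12b was added to complete a count. Promoter sequences are RefSeq's, build GRCm38.p6, and served only for letters and their distance from the start. Alternatives were 12 other settings of the fit and the removal of each array in turn.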

Additional observations from a re-analysis of the deposited data

Results flagged for a closer look

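The GATA1 effect differed between times for 504 genes (4.68% of all genes tested), among them 5 of 8 erythroid, 3 of 9 megakaryocyte and 3 of 6 mast cell and myeloid markers. In the lists of division genes 1 passed that test. Septin6, a septin of the wider contractile ring list and not one of the 36 genes, had GATA1 effects that differed by -0.85 (42 h minus 18 h, log2; SE 0.09; limma adjusted p = 0.000823), with a change of -1.09 at 42 h and -0.24 at 18 h (adjusted p = 0.136). Of the 35 mitosis and cytokinesis genes analysed, 0 passed that test. Groups of 3 arrays are too small to test single arrays as outliers.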

How the results depend on the processing

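Across 24 alternative settings no called gene among the 35 changed direction. Of the wider lists, the called gene Pkmyt1 did so with its second brightest probe set (a change of 0.0186 at 42 h, against -0.32 with the brightest). At 18 h the count among the 35 genes stayed at 0 except with the replicate block (1, Top2a), while the count over all genes (199) became 355 with the replicate block, 119 when low values were kept, 54 in a fit of the compared arrays alone, 40 with the second brightest probe set, 32 without the 4 arrays lettered A and 101 to 200 without single arrays. Of the genes named, the block also changed calls between constructs at 42 h. Ttk and Mki67 gained a call (adjusted p = 0.0442 and 0.0136), and Pkmyt1 of the wider lists lost its call (adjusted p = 0.053). Across times in GATA1 cells only 2 of 3 same-letter pairs correlated over 0.1, so the letter was not taken to pair those arrays. Block values for the difference of effects and for GATA1 with time therefore stand only here. At 42 h the count among the 35 (4) became 6 with the replicate block, 0 with no filter or with the second brightest probe set (21 genes tested), 2 with a stricter filter (intensity 100), with only the arrays compared, with the mean of all probe sets or without the 4 arrays lettered A, and 0 to 5 without single arrays. It was 0 without GATA1 42 h C and 1 without vector 42 h C. It was 2 without any one of GATA1 18 h B, vector 18 h B, GATA1 42 h A, GATA1 42 h B, vector 42 h A and vector 42 h B. The count over all genes at 42 h (2253) was 641 with the second brightest probe set and 1691 to 2221 without single arrays.

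For the difference of effects the 35 genes stayed at 0, and all genes (504) became 853 with the replicate block, 320 with no filter, 96 with the second brightest probe set, 258 without the 4 arrays lettered A and 324 to 539 without single arrays. For GATA1 42 h against 18 h the 35 genes (4) gave 8 with the replicate block, 1 with the second brightest probe set, 13 with array weights, 7 without the 4 arrays lettered A and 1 to 5 without single arrays, with 1 without GATA1 18 h B and 2 without GATA1 18 h C or GATA1 42 h B. All genes (1578) gave 403 with the second brightest probe set, 2930.0 with array weights and 1059 to 1599 without single arrays. For vector 42 h against 18 h the 35 genes stayed at 0, and all genes (2) gave 41 with the replicate block, 5 with quantile normalization, 1 with a pseudocount of 1, a stricter filter or median centring, 0 with only the arrays compared or without the 4 arrays lettered A, and 1 to 3 without single arrays. The cause of these moves was not tested. The median change of the 35 at 18 h was 0.03, and -0.05 without GATA1 18 h A, -0.06 without vector 18 h C and 0.13 without vector 18 h A. Each of these fits takes a letter out of only 1 construct. Without the 4 arrays lettered A the median was 0.05. The part of the 18 h letter pattern in these values was not tested. The main fit has 3 arrays a group and shares 1 estimate of the spread between both times. Its median SE of a 42 h change was 0.14 over the 35 genes, so changes near that size were not detectable in it.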
